A study of Danio rerio with 6 samples.

Results

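The sphingosine-1-phosphate (S1P) receptor genes were described in endothelial cells sorted from zebrafish embryos at 48 hours post fertilization (hpf). Every gene of the deposited expression table whose symbol begins with s1pr, in either letter case, was taken. This gave 7 of 31701 genes, namely s1pr1, s1pr2, s1pr3a, S1PR3, s1pr4, s1pr5a and s1pr5b. S1PR3 is the only one written in capitals. Its identifier was not listed in the table that pairs identifiers with symbols, in which the other 6 were found, so its zebrafish name was not established here.

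S1P is a lipid mediator made inside cells by sphingosine kinases, exported by transporters such as Spns2, and carried in plasma and lymph. It acts through a family of G protein-coupled receptors on the cell surface. Receptors of the S1PR1 type couple to inhibitory G proteins and to Rac, which tightens junctions between endothelial cells. Receptors of the S1PR2 type also couple to the G12 and G13 class of G proteins and act in the opposite direction in mammalian endothelium. In mice, loss of S1pr1 causes haemorrhage and excess vessel sprouting. In zebrafish, s1pr2 is the gene of the miles apart mutant and acts with spns2 in the migration of heart precursors.

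Of the 3 groups, each with 2 libraries, the hhex overexpression group came from Tg(fli1a:tdTomato-2A-hhex)bns136 embryos that also carried Tg(kdrl:EGFP)s843, and cells positive for both EGFP and tdTomato were sorted. In this line the endothelial fli1a promoter drives the homeobox transcription factor gene hhex. The hhex mutant group and the sibling group both carried Tg(kdrl:EGFP)s843 without the overexpression transgene, were sorted for EGFP alone, and were told apart by the lack of parachordal lymphangioblasts, the precursors of trunk lymphatic vessels. All embryos were of strain AB. By the study's methods the mutant allele was hhex s722, a short in-frame deletion within the homeodomain. Siblings are labelled wild type but were picked by phenotype, which does not separate hhex+/+ from hhex+/- embryos. Nothing in the labels says whether the 2 libraries of a group came from separate clutches or sorts, so the p-values measure only the spread between these libraries, which may be technical. The sorting gate and the overexpression transgene cannot be told apart in any comparison with the overexpression group.

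Normalized values, the quantity given below, are read numbers per gene that the authors scaled by a size factor for each library and rounded. An estimated 19651603 to 23615228 reads per library lay on genes. In overexpression libraries hhex had normalized values of 764 and 925, in mutant libraries 613 and 1157, and in sibling libraries 204 and 279. The transgene's hhex reads and those of the endogenous gene were not separated, and a short deletion in the coding sequence does not show in a read number, so the mutant label was not checked by this gene. All 10 endothelial markers (among them the transcription factor genes fli1a and erg, the angiopoietin receptor genes tie1 and tek, and the junction genes pecam1, cldn5b and esama) were present in every library. Their summed value was 37097 and 32124 in overexpression, 11604 and 32249 in mutants, and 15688 and 26127 in siblings, and mutant replicate 1 was the lowest. In bulk samples, fewer cells of a type and less RNA per cell cannot be told apart.

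The limma test on log2(value + 1), fitted over 20900 genes (mean normalized value of 5 or more), called 0 genes in any of the 3 comparisons at a Benjamini-Hochberg adjusted p of 0.05, which is 0% of genes tested. Even hhex, 3.50 times as high in overexpression as in siblings, was not called (adjusted p = 0.191 from limma). The paper's DESeq2 test of these libraries did call hhex against siblings in both hhex groups. Among the genes that the paper lists, the others called were in comparisons with overexpression. A count of 0 here therefore does not mean that no gene differed. At an unadjusted p under 0.05 there were 3135 genes (15%) between overexpression and siblings, 711 genes (3.4%) between mutants and siblings, and 3675 genes (17.6%) between overexpression and mutants. Among the 7 receptor genes, 6 entered the test. The gene that did not, s1pr3a, had a mean of 1.83 over the 6 libraries. No difference given below passed the adjusted threshold in this fit. The 3 comparisons share libraries, so their values are set side by side and are not independent.

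**Figure D1:**
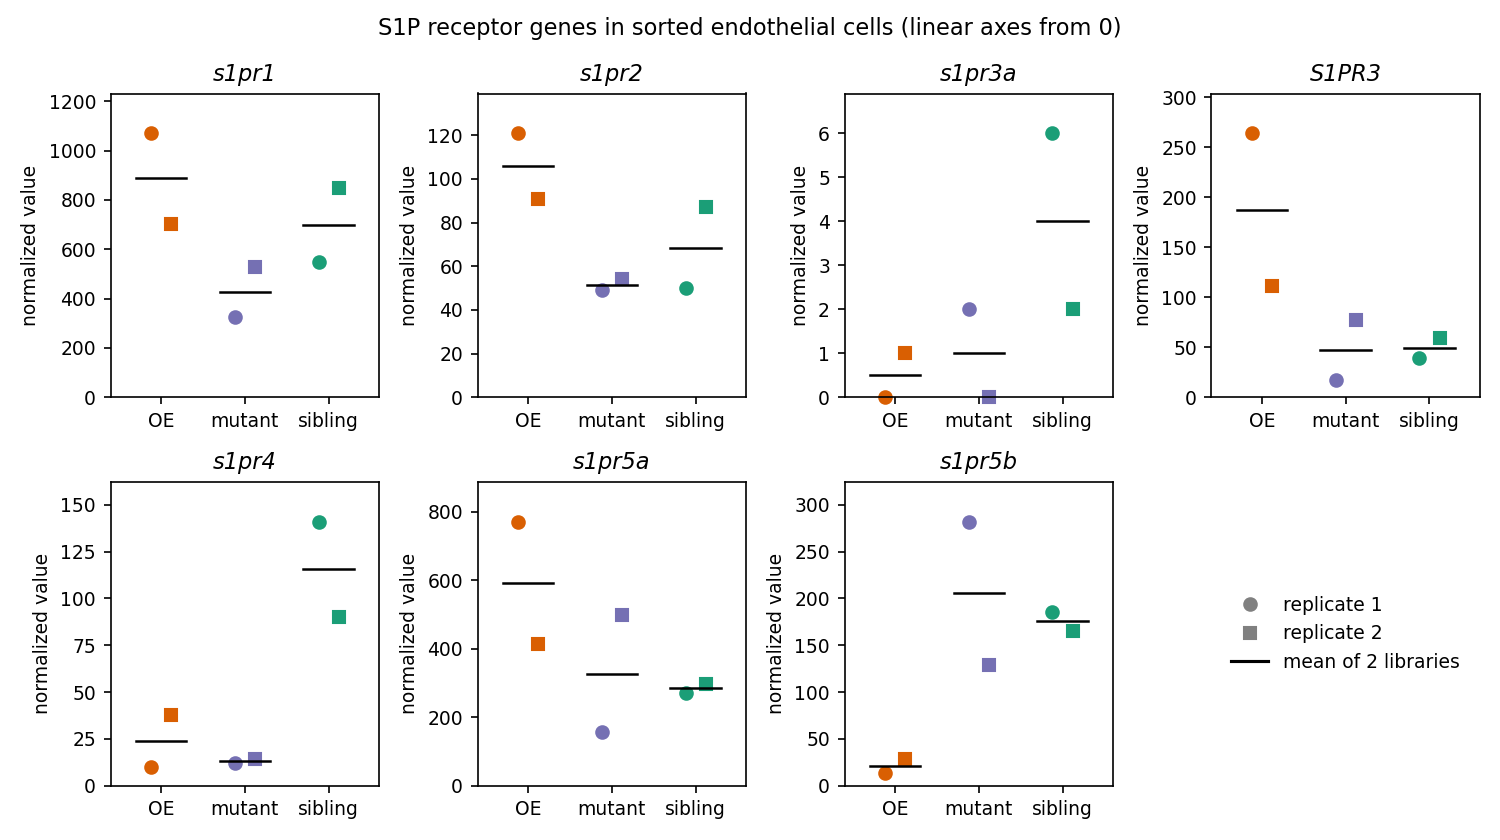
Normalized value (y axis, linear from 0) of each S1P receptor gene in each library, by group (x axis; OE, overexpression), with circles for replicate 1, squares for replicate 2 and a bar for the mean of the 2 libraries. Both s1pr5b values in overexpression (13 and 29) lie below the other 4 libraries, and s1pr4 is low in overexpression and in mutants alike, below both siblings (141 and 90).

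The receptor best known from endothelium, s1pr1 (ENSDARG00000042690, chromosome 22, 16012225 to 16015973, minus strand, GRCz10), had normalized values of 1071 and 703 in overexpression, 326 and 526 in mutants, and 548 and 847 in siblings. Both mutant libraries lay below both siblings and below both overexpression libraries, while overexpression and siblings overlapped. For counting error, the exact 95% Poisson intervals of mutant replicate 2 (480 to 575) and sibling replicate 1 (507 to 591) overlapped. The means were 887 ± 260 in overexpression, 426 ± 141 in mutants and 697.5 ± 211 in siblings (SD, n = 2 each). Mutants differed from siblings by -0.72 on the log2 scale (SE 0.34, adjusted p = 1 from limma). Overexpression differed from mutants by 1.07 (SE 0.34, adjusted p = 0.201 from limma), with a 95% confidence interval of 0.28 to 1.85. After rescaling to the endothelial markers this difference was 0.16, and the groups overlapped. Against siblings, overexpression differed by 0.35 (SE 0.34, adjusted p = 0.634 from limma), and this turned to -0.49 when the libraries were rescaled to the endothelial markers. Without mutant replicate 1, the library with the lowest endothelial markers, the difference between mutants and siblings was -0.37.

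The second receptor with a known role in zebrafish, s1pr2 (ENSDARG00000036548, chromosome 3, 54361413 to 54414583, minus strand), had normalized values of 121 and 91 in overexpression, 49 and 54 in mutants, and 50 and 87 in siblings. Overexpression was above all 4 other libraries, a position shared by 16% of the genes tested, and mutants overlapped with siblings. Exact 95% Poisson intervals for counting error overlapped for overexpression replicate 2 (73.9 to 112) and sibling replicate 2 (70.2 to 107). The means were 106 ± 21.2 in overexpression, 51.5 ± 3.54 in mutants and 68.5 ± 26.2 in siblings (SD, n = 2 each). The log2 difference was 0.66 between overexpression and siblings (SE 0.39, adjusted p = 0.437 from limma), which became -0.18 after rescaling to the endothelial markers. It was 1.01 between overexpression and mutants (SE 0.39, adjusted p = 0.254 from limma). After the same rescaling it was 0.10 there, and the groups overlapped.

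Of the 2 genes named for the third receptor, s1pr3a (ENSDARG00000042470, chromosome 22, 21450670 to 21451858, minus strand) was close to 0, with 0 and 1 in overexpression, 2 and 0 in mutants, and 6 and 2 in siblings. At this depth a value of 0 allows up to 3.90 in overexpression replicate 1 (upper limit of an exact 95% Poisson interval, which covers counting error only), so differences among these values were not detectable. S1PR3 (ENSDARG00000098253, chromosome 21, 2974516 to 2975916, minus strand) had 264 and 111 in overexpression, 17 and 77 in mutants, and 39 and 59 in siblings. Receptors of this type couple to several classes of G protein in mammals. Overexpression stood above the other 4 libraries here too, and mutants and siblings overlapped. For counting error, the exact 95% Poisson intervals of overexpression replicate 2 (91.3 to 133) and mutant replicate 2 (59.8 to 97.0) overlapped. The mean was 187.5 ± 108 in overexpression, 47 ± 42.4 in mutants and 49 ± 14.1 in siblings (SD, n = 2 each), 3.83 times as high in overexpression as in siblings. The log2 difference was 1.81 between overexpression and siblings (SE 0.71, unadjusted p = 0.0346 and adjusted p = 0.306 from limma) and 2.20 between overexpression and mutants (SE 0.71, adjusted p = 0.202 from limma). Leaving out mutant replicate 1 gave a difference from mutants of 1.14, and leaving out replicate 2 of that group gave 3.26, with an adjusted p of 0.00841 from limma.

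In mammals S1PR4 is found mainly on blood and immune cells. Its zebrafish gene s1pr4 (ENSDARG00000074851, chromosome 22, 4936040 to 4939107, minus strand) had normalized values of 10 and 38 in overexpression, 12 and 14 in mutants, and 141 and 90 in siblings. The libraries of both hhex groups were below both siblings, as for 5.7% of the genes tested, and the hhex groups overlapped with each other. Means were 24 ± 19.8 in overexpression, 13 ± 1.41 in mutants and 115.5 ± 36.1 in siblings (SD, n = 2 each), 4.81-fold lower in overexpression and 8.88-fold lower in mutants. On the log2 scale overexpression differed from siblings by -2.46 (SE 0.65, unadjusted p = 0.00564 and adjusted p = 0.220 from limma). Mutants differed from siblings by -3.03 (SE 0.65, unadjusted p = 0.00173 and adjusted p = 1 from limma). Counting error alone gave exact 95% Poisson intervals of 4.35 to 18.1 and 27.5 to 52.4 in overexpression, 6.16 to 20.8 and 7.59 to 24.4 in mutants, and 121 to 164 and 72.8 to 110 in siblings, so the siblings' intervals did not meet any of the others.

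Markers of skeletal muscle were low in the same libraries as s1pr4. All 7 muscle markers (myod1, actc1b, mylpfa, tnnt3a, ckma, myhz2 and acta1b) were detected in each library, and their summed value was 5164 and 15361 in overexpression, 10289 and 5941 in mutants, and 31319 and 21017 in siblings. All 7 were lower in both mutants than in both siblings, against 13.4% of all genes, and 6 of 7 were lower in both overexpression libraries, against 27% of all genes. Among the genes whose profile was most like s1pr4 was pvalb2, a parvalbumin gene, with 335 and 789 in overexpression, 360 and 304 in mutants, and 1788 and 1101 in siblings. Of the 8 lymphoid markers, 5 entered the test, and 4 of those were lower in both overexpression libraries than in both siblings (27% of all genes). The summed lymphoid value was 62 and 288 in overexpression, 2422 and 505 in mutants, and 1641 and 901 in siblings. In mutant replicate 1 the markers ikzf1, il7r, rag2 and lck were above both siblings and ccr9a lay between them. In that library zap70, rag1 and cd4-1 were below both siblings. The lymphoid markers rag1, rag2, lck and cd4-1 were each at 0 in at least 1 library, and rag1 in both overexpression libraries. The part of either cell type in the s1pr4 difference was not tested.

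By normalized value, the 2 copies of the fifth receptor lay on opposite sides of the siblings in the overexpression group. In mammals S1PR5 is known from natural killer cells and oligodendrocytes. For s1pr5a (ENSDARG00000040526, chromosome 3, 19215208 to 19218695, minus strand) the normalized values were 771 and 414 in overexpression, 156 and 499 in mutants, and 271 and 297 in siblings. Both overexpression libraries were above both siblings, and the 2 mutant libraries were so far apart that they enclosed the siblings. Mean values were 592.5 ± 252 in overexpression, 327.5 ± 243 in mutants and 284 ± 18.4 in siblings (SD, n = 2 each). Overexpression differed from siblings by 0.99 (SE 0.52, adjusted p = 0.392 from limma), and mutants by -0.023 (SE 0.52, adjusted p = 1 from limma), with a 95% confidence interval of -1.23 to 1.18 for the mutants. Between overexpression and mutants the difference was 1.01 (SE 0.52, adjusted p = 0.347 from limma), with 0.18 when mutant replicate 1 was left out and 1.85, at an adjusted p of 0.0119 from limma, when the other mutant library was. Without mutant replicate 1 the difference between mutants and siblings was 0.81. After rescaling to the endothelial markers, overexpression differed from mutants by 0.10 and from siblings by 0.15, and the groups overlapped in both comparisons.

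For s1pr5b (ENSDARG00000052192, chromosome 6, 122070 to 123646, minus strand) the normalized values were 13 and 29 in overexpression, 282 and 129 in mutants, and 186 and 165 in siblings. Overexpression was below all 4 other libraries, a position held by 17.3% of the genes tested, and mutants enclosed the siblings. The means were 21 ± 11.3 in overexpression, 205.5 ± 108 in mutants and 175.5 ± 14.8 in siblings (SD, n = 2 each), 8.36-fold lower in overexpression than in siblings. Exact 95% Poisson intervals were 6.56 to 22.2 and 19.5 to 41.2 in overexpression and at least 107 in each of the others. Overexpression differed by -3.10 from siblings (SE 0.50, unadjusted p = 0.000255 and adjusted p = 0.191 from limma) and by -3.23 from mutants (SE 0.50, unadjusted p = 0.000196 and adjusted p = 0.114 from limma). Between mutants and siblings the difference was 0.12 (SE 0.50, 95% confidence interval -1.03 to 1.27). The difference from siblings had an adjusted p of 0.0106 from limma when only the 4 libraries compared were fitted, and the adjusted p ran between 0.00740 and 0.816 over the 15 alternative settings. The gene overlaps ap1m2 on the plus strand. By the paper's methods, reads that overlapped more than 1 gene were left out. Unless strands were counted apart, reads on exons of both genes are therefore missing from the s1pr5b values. No strand setting of the counting was given, so whether any ap1m2 reads were counted for s1pr5b is not known.

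Beside s1pr5b, marker lists of blood lineages had negative median log2 differences between overexpression and siblings, but not all of their summed values were lower. The 5 thrombocyte markers had a median log2 difference of -2.08 between overexpression and siblings, with 3 of 5 lower and 1 of 5 higher in both overexpression libraries, against 27% and 26.9% of all genes. In this list itga2b, an integrin subunit gene of platelets, had 0 and 2 in overexpression, 56 and 15 in mutants, and 88 and 40 in siblings. The other lower genes were mpl (128 and 90 in overexpression, 623 and 359 in siblings) and gp1bb (8 and 13 against 49 and 44). Summed thrombocyte values were 4630 and 4492 in overexpression, 3496 and 4310 in mutants, and 4390 and 3673 in siblings, so the sum of this list was not lower in overexpression. Most of this sum lay in thbs1b and fli1b. Values of thbs1b were 2344 and 2444 in overexpression and 2419 and 1558 in siblings. Those of fli1b were 2150 and 1943 in overexpression and 1211 and 1672 in siblings. The median of the lymphoid markers tested was -2.66, that of the 8 erythroid markers -0.73 and that of the 8 myeloid markers -1.04. Of 8 erythroid markers, 3 were lower and 0 higher without overlap, against 27% and 26.9% of all genes. Of 8 myeloid markers, 2 were lower and 1 higher in this way. Summed erythroid values were 4329 and 3225 in overexpression, 5966 and 4884 in mutants, and 5954 and 3787 in siblings. Summed myeloid values were 938 and 8701 in overexpression, 10635 and 12952 in mutants, and 8028 and 8562 in siblings. Overexpression replicate 2 was thus above both siblings in this sum. The part of these cells in the s1pr5b difference was not tested.

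Across the 6 receptor genes tested, the groups did not overlap for 5 between overexpression and siblings. Of these, s1pr2, S1PR3 and s1pr5a were higher and s1pr4 and s1pr5b lower. Of all genes tested, 26.9% were higher and 27% lower in this way. When rescaled to the endothelial markers, s1pr2 turned lower in that comparison and s1pr5a overlapped. Between mutants and siblings 2 of 6 did not overlap, s1pr1 and s1pr4, both lower, against 13.4% of all genes lower and 13.3% higher. Between overexpression and mutants 4 of 6 did not overlap, with s1pr1, s1pr2 and S1PR3 higher and s1pr5b lower, against 24.1% of all genes higher and 24.6% lower. After rescaling to the endothelial markers, s1pr1 and s1pr2 overlapped in that comparison. The median log2 difference over all genes was close to 0 in each comparison (0.022, -0.010 and 0.020 in the same order). At an unadjusted p under 0.05 from limma, S1PR3 was higher and s1pr4 and s1pr5b lower between overexpression and siblings, against 6.23% of all genes higher and 8.77% lower. Between mutants and siblings 0 receptor genes were higher and s1pr4 was lower at that p, against 1.23% and 2.17% of all genes. Between overexpression and mutants s1pr1, s1pr2 and S1PR3 were higher and s1pr5b lower, against 8.68% and 8.9%. With 6 genes these counts describe the family and set it apart from no other.

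**Figure D2:**
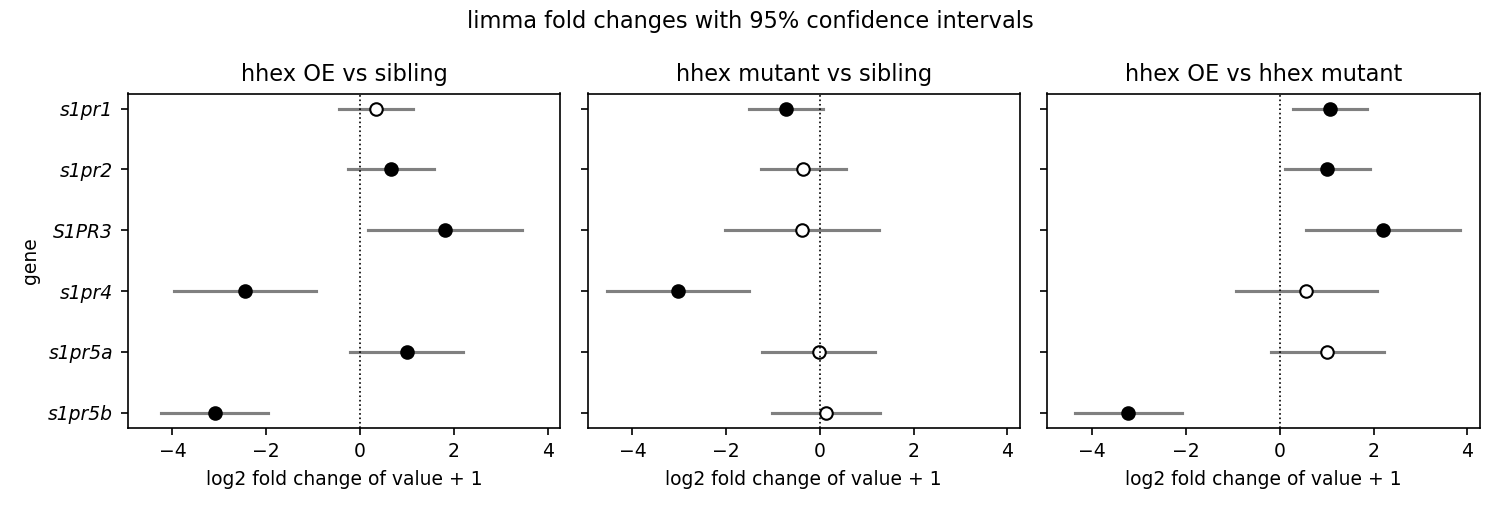
limma log2 fold change of value + 1 (x axis) for the 6 receptor genes tested (y axis) in the 3 comparisons, with grey lines for 95% confidence intervals. Filled points mark genes whose 2 groups do not overlap and open points those that do. s1pr5b lies at -3.10 and -3.23 in the 2 comparisons with overexpression and at 0.12 between mutants and siblings, and the points of s1pr1 and s1pr2 between overexpression and siblings turn negative after rescaling to the endothelial markers.

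Because endothelial markers themselves were higher in overexpression, each receptor was also expressed as its log2(value + 1) minus the mean log2(value + 1) of the 10 endothelial markers in the same library. All 10 of these markers were above both siblings in both overexpression libraries, with a median log2 difference of 0.89, and 0 of 10 were clear of the siblings in both mutants. Of all genes, 26.9% were above both siblings in both overexpression libraries. On this scale s1pr1 was -1.58 and -1.95 in overexpression, -1.50 and -2.34 in mutants, and -1.20 and -1.35 in siblings. Both hhex groups were thus below the siblings, with differences of -0.49 in overexpression and -0.65 in mutants (exact permutation p = 0.33 in both, the smallest that 2 against 2 libraries can give). The share of all genes with this position was 3%, whereas 58.3% of genes were lower in overexpression than in siblings on this scale and 5.11% lower in mutants.

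S1PR3 kept its place above the other groups, at -3.59 and -4.60 in overexpression, -5.68 and -5.09 in mutants, and -4.98 and -5.17 in siblings. Its relative level was 0.98 higher in overexpression than in siblings and 1.29 higher than in mutants (exact permutation p = 0.33 for each), a direction without overlap that was found for 4.66% and 4.36% of all genes. By contrast s1pr5a overlapped in all 3 comparisons, at -2.05 and -2.71 in overexpression, -2.56 and -2.41 in mutants, and -2.21 and -2.86 in siblings. The relative level of s1pr2 spread most in the mutants (-4.21 and -5.60), against -4.71 and -4.89 in overexpression and -4.62 in both siblings. Relative s1pr4 differed from siblings by -3.30 in overexpression and by -2.95 in mutants. For s1pr5b the difference of overexpression was -3.94 from siblings and -4.14 from mutants, and 43.9% of all genes were lower than in mutants without overlap. On this scale 0 of 6 receptor genes were higher in mutants than in siblings without overlap, against 5.94% of all genes.

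**Figure D3:**
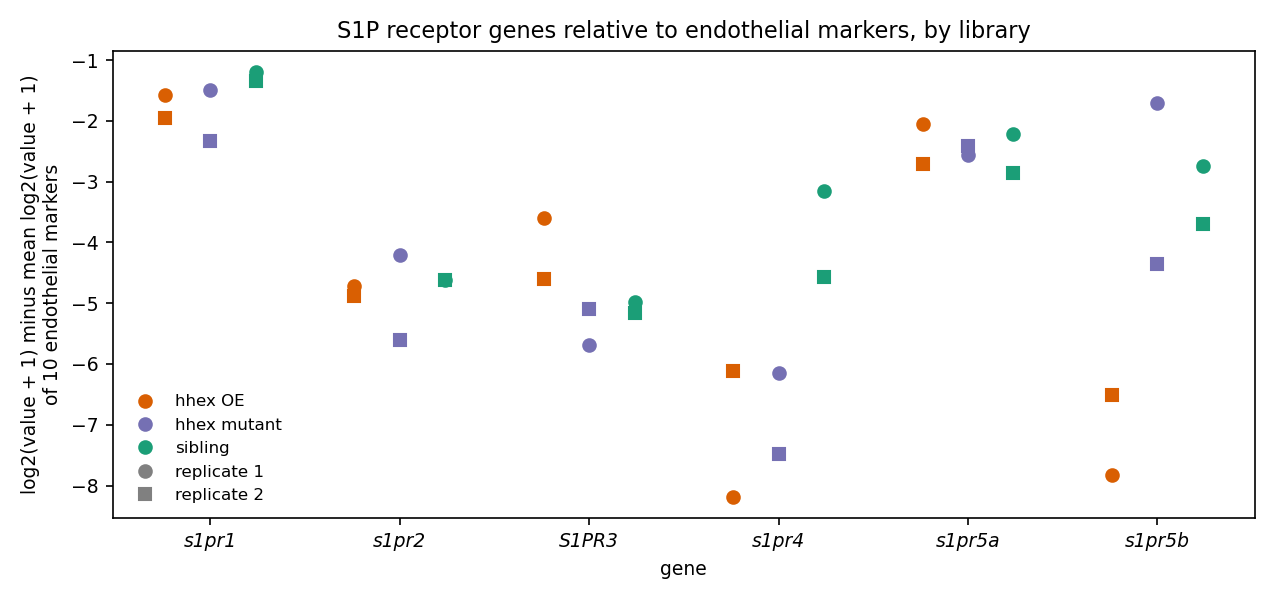
Receptor level relative to the endothelial markers (y axis, log2(value + 1) of the gene minus the mean over 10 endothelial markers) for each gene (x axis) and library. Colours give the group, circles replicate 1 and squares replicate 2. s1pr1 is highest in the 2 siblings (-1.20 and -1.35), and s1pr5b in overexpression (-7.83 and -6.50) is below every other library.

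Markers of other tissues were higher in overexpression beside S1PR3 and s1pr5a. The 6 epidermis markers had a median log2 difference of 1.32 between overexpression and siblings and of 1.93 between overexpression and mutants, with 5 of 6 above both libraries of the other group in each case, against 26.9% and 24.1% of all genes. Summed epidermis values were 4841 and 5656 in overexpression, 2574 and 639 in mutants, and 3650 and 1459 in siblings. Of the 8 neural markers, 4 were clear of the siblings and higher in overexpression (26.9% of all genes), and the summed values were 1732 and 1365 in overexpression, 1186 and 312 in mutants, and 1267 and 689 in siblings. Both lists had their lowest sums in mutant replicate 2. S1PR3, s1pr5a and the summed endothelial markers were lowest in mutant replicate 1. None of the epidermis and neural markers was at 0 in any library. Their part in the receptor differences was not tested.

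The make-up of the family within a library does not depend on how libraries are scaled. Shares were taken as the value of a gene over the summed value of the 7 genes, with no correction for gene length, so they compare libraries and not genes. The summed value was 2250 and 1387 in overexpression, 844 and 1299 in mutants, and 1241 and 1547 in siblings, and only overexpression and mutants did not overlap. In overexpression s1pr5b made up 0.578% and 2.09% of the sum, in mutants 33.4% and 9.93%, and in siblings 14.99% and 10.7%. S1PR3 made up 11.7% and 8.003% in overexpression, 2.01% and 5.93% in mutants, and 3.14% and 3.81% in siblings. The s1pr4 share was 0.444% and 2.74% in overexpression, 1.42% and 1.08% in mutants, and 11.4% and 5.82% in siblings. The share of s1pr1 was 49.1% ± 2.18 in overexpression, 39.6% ± 1.32 in mutants and 49.5% ± 7.49 in siblings (SD, n = 2 each), and both mutants were below all others. For s1pr5a the share was higher in overexpression (32.1% ± 3.12) than in siblings (20.5% ± 1.87; SD, n = 2 each) without overlap, and mutants spread over both (28.4% ± 14.1). Each of these separations had an exact permutation p of 0.33.

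**Figure D4:**
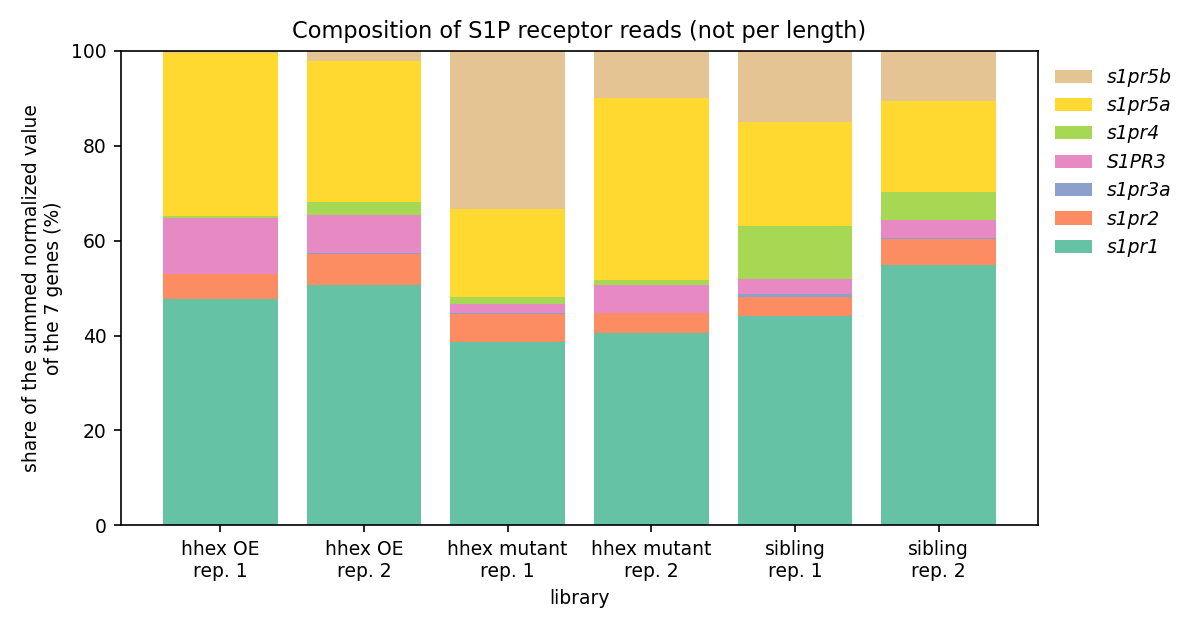
Share of each receptor gene in the summed normalized value of the 7 S1P receptor genes (y axis, percent, stacked to 100) in each library (x axis), not corrected for gene length. The s1pr5b share is 0.578% and 2.09% in overexpression, against 9.93% to 33.4% in the other 4 libraries.

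Within libraries, the difference between log2(value + 1) of s1pr5b and of s1pr5a was -5.79 and -3.79 in overexpression, 0.85 and -1.94 in mutants, and -0.54 and -0.84 in siblings. The pair of genes was therefore further apart in both overexpression libraries than in any other, with a mean difference of -4.10 from siblings (exact permutation p = 0.33). Between S1PR3 and s1pr1 the difference was -2.02 and -2.65 in overexpression, -4.18 and -2.76 in mutants, and -3.78 and -3.82 in siblings. Between s1pr2 and s1pr1 it was -3.14 and -2.94 in overexpression, -2.71 and -3.26 in mutants, and -3.43 and -3.27 in siblings. Both hhex groups were thus above the siblings, by a mean of 0.31 in overexpression and 0.36 in mutants (exact permutation p = 0.33 for each). However, mutant replicate 2 (-3.26) was nearly equal to sibling replicate 2 (-3.27). The s1pr2 value of that mutant library, 54, had an exact Poisson interval of 39.7 to 71.0. The separation of mutants from siblings in this difference was therefore within counting error.

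The receptor genes followed different profiles over the 6 libraries. As a description with no test, Pearson r of log2(value + 1) was 0.966 between s1pr5a and S1PR3, 0.901 between s1pr1 and s1pr2, and -0.925 between S1PR3 and s1pr5b. The correlation of s1pr4 with the other receptors was between -0.303 and 0.341. These 6 points share 3 groups and differ in endothelial content, and many genes follow the same profiles. Among 10217 genes with a symbol and a mean of at least 50, 1212 had r over 0.9 with s1pr5b, 1070 with S1PR3, 821 with s1pr5a, 352 with s1pr1, 294 with s1pr2 and 66 with s1pr4.

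Nearest to s1pr1 were KIF3C (r = 0.991), ptdss2 (0.988) and klf12b (0.985), to s1pr2 NINJ1 (0.999), tank (0.993) and mast4 (0.988), and to S1PR3 arhgap12b (0.999), cyhr1 (0.995) and zic2a (0.995). The most similar genes to s1pr4 were tmem147 (r = 0.989), pvalb2 (0.984) and slc25a4 (0.983), those to s1pr5a were dld (0.996), anxa13 (0.994) and perp (0.993), and those to s1pr5b were mdh1aa, thumpd3 and rrp12 (0.998 each). The Notch ligand gene dld had 419 and 277 in overexpression, 122 and 295 in mutants, and 197 and 217 in siblings, and the ADP/ATP carrier gene slc25a4 had 29 and 111 in overexpression, 48 and 52 in mutants, and 239 and 168 in siblings.

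Genes that supply and remove the ligand were read from a list of S1P synthesis and breakdown, of which 27 of 29 genes entered the test. Between overexpression and siblings 10 of 27 were higher and 3 lower without overlap, with a median log2 difference of 0.21, against 26.9% and 27% of all genes and a median of 0.022. Between mutants and siblings 2 were higher and 1 lower (median 0.026), against 13.3% and 13.4% of all genes. Between overexpression and mutants 8 were higher and 5 lower (median 0.28), against 24.1% and 24.6% of all genes. The sphingosine kinase gene sphk2 had 258 and 181 in overexpression, 177 and 170 in mutants, and 175 and 152 in siblings. Overexpression was thus just clear of the rest, as for 16% of the genes tested. The log2 difference of sphk2 from siblings was 0.40 (SE 0.28, adjusted p = 0.492 from limma), against a median of 0.89 for the endothelial markers. The S1P lyase gene sgpl1, whose product degrades S1P for good, overlapped in every comparison, with 439 and 406 in overexpression, 335 and 444 in mutants, and 360 and 417 in siblings.

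The lipid phosphate phosphatase genes plpp1a and plpp3, whose products dephosphorylate S1P and related lipids, were higher in overexpression than in all 4 other libraries. This position was shared by 16% of the genes tested. For plpp1a the values were 475 and 510 in overexpression, 151 and 398 in mutants, and 167 and 232 in siblings (log2 difference from siblings 1.32, SE 0.43, adjusted p = 0.256 from limma). For plpp3 they were 3004 and 2366 in overexpression, 661 and 1948 in mutants, and 1025 and 1653 in siblings (1.03, SE 0.47, adjusted p = 0.349 from limma). The endothelial markers had a median log2 difference of 0.89 between overexpression and siblings. The ceramide synthase gene cers1 was the lowest against siblings in this list, with 66 and 70 in overexpression, 245 and 186 in mutants, and 344 and 239 in siblings (log2 difference -2.06, SE 0.30, adjusted p = 0.191 from limma). Another ceramide synthase gene, cers5, had 61 and 82 in overexpression, 141 and 121 in mutants, and 87 and 76 in siblings, with both mutants above the other 4 libraries. The subunits of serine palmitoyltransferase, which starts sphingolipid synthesis, differed from each other. With sptlc3 there were 28 and 88 in overexpression, 137 and 112 in mutants, and 127 and 103 in siblings, and with sptlc1 293 and 314 in mutants against 267 and 240 in siblings. The desaturase gene degs1 had 536 and 608 in overexpression, 360 and 405 in mutants, and 416 and 441 in siblings.

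Of the 7 export and carriage genes, 5 entered the test. The S1P exporter gene spns2 had 3331 and 2574 in overexpression, 933 and 2644 in mutants, and 1359 and 1737 in siblings, and mutants and siblings overlapped. Its log2 difference between overexpression and siblings was 0.93 (SE 0.44, adjusted p = 0.356 from limma), against a median of 0.89 for the endothelial markers. The lysolipid transporter gene mfsd2ab had 239 and 228 in overexpression, 112 and 171 in mutants, and 172 and 268 in siblings. Both mutants were below the other 4 libraries, but mutant replicate 2 (171) was nearly equal to sibling replicate 1 (172). Of all genes, 13.4% were lower in both mutants than in both siblings. For spns1, a lysosomal relative of spns2, the values were 204 and 187 in overexpression, 169 and 173 in mutants, and 146 and 192 in siblings. The erythrocyte exporter gene mfsd2b and the plasma carrier gene apom had at most 3 in any library.

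Downstream of the receptors, 11 of 17 G protein alpha subunit genes entered the test, and 3 were higher and 2 lower in overexpression than in siblings without overlap (median 0.25), against 26.9% and 27% of all genes. The inhibitory subunit gene gnai2b had 160 and 154 in overexpression, 541 and 275 in mutants, and 378 and 280 in siblings (log2 difference from siblings -1.05, SE 0.35, adjusted p = 0.258 from limma). Its copy gnai2a had 2490 and 2248 in overexpression, 1637 and 2586 in mutants, and 1838 and 2137 in siblings, above both siblings in overexpression but below them after rescaling to the endothelial markers. The subunit genes gna13a and gna13b, of the G12 and G13 class, had log2 differences between -0.25 and 0.30 in the 3 comparisons. Values of gna13a were 314 and 369 in overexpression, 268 and 285 in mutants, and 307 and 346 in siblings, and its difference of 0.30 between overexpression and mutants turned to -0.61 after rescaling to the endothelial markers. For gna13b there were 444 and 356 in overexpression, 530 and 421 in mutants, and 433 and 499 in siblings, with overlap in each comparison.

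Among genes of Rac signalling, the Rac exchange factor gene tiam1b had 990 and 1057 in overexpression, 251 and 729 in mutants, and 415 and 648 in siblings. Its log2 difference between overexpression and siblings was 0.98 (SE 0.46, adjusted p = 0.357 from limma), beside a median of 0.89 for the endothelial markers. Its target rac1a had 818 and 716 in overexpression, 322 and 678 in mutants, and 408 and 609 in siblings, and its difference from siblings of 0.62 turned to -0.22 after rescaling to the endothelial markers. The blood cell gene rac2 had 122 and 253 in overexpression, 478 and 246 in mutants, and 462 and 365 in siblings (-1.22, SE 0.43, adjusted p = 0.275 from limma).

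The receptor desensitization list, with arrestins, a receptor kinase and regulators of G protein signalling (RGS), had 5 of 11 genes higher and 2 lower in overexpression than in siblings (median 0.50), against 26.9% and 27% of all genes. In mutants 3 were higher and 1 lower than in siblings (median 0.086), against 13.3% and 13.4%, and between overexpression and mutants 4 were higher and 2 lower (median 0.41), against 24.1% and 24.6%. RGS proteins shorten the active state of G protein alpha subunits. Among genes of all these lists with a mean of at least 50, mutants differed most from siblings in rgs5b, with 736 and 432 in overexpression, 111 and 112 in mutants, and 242 and 458 in siblings (log2 difference -1.57, SE 0.37, unadjusted p = 0.00293 and adjusted p = 1 from limma). Overexpression was 2.33 higher on the log2 scale than mutants in rgs5b (SE 0.37, adjusted p = 0.114 from limma). For rgs4 the values were 95 and 134 in overexpression, 3 and 38 in mutants, and 23 and 42 in siblings. The arrestin gene arrb2a had 111 and 98 in overexpression, 188 and 177 in mutants, and 174 and 106 in siblings. Both mutants were above the other 4 libraries, but mutant replicate 2 (177) was close to sibling replicate 1 (174).

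**Figure D5:**
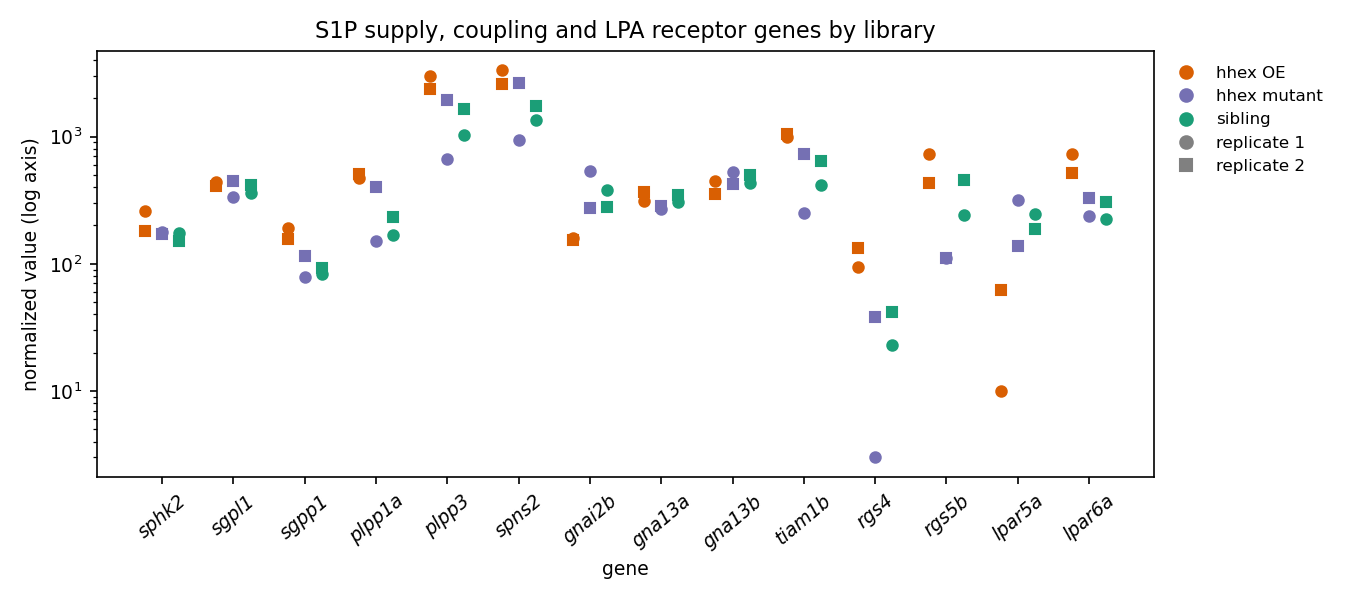
Normalized value (y axis, log scale) of 14 genes of S1P supply, receptor coupling and lysophosphatidic acid receptors (x axis) in each library. Colours give the group, circles replicate 1 and squares replicate 2. lpar5a is lowest in the 2 overexpression libraries (10 and 62), and rgs5b lowest in the 2 mutants (111 and 112).

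The lysophosphatidic acid (LPA) receptors, which bind a related lysophospholipid and include the closest relatives of the S1P receptors, gave a point of comparison. Of 9 LPA receptor genes, 4 were higher and 1 lower in overexpression than in siblings (median 0.40), where 26.9% of all genes were higher and 27% lower. Mutants had 2 higher and 1 lower than siblings (median 0.079), against 13.3% and 13.4% of all genes, and overexpression had 5 higher and 1 lower than mutants (median 0.63), against 24.1% and 24.6%. The one that was lower in overexpression in both comparisons was lpar5a, with 10 and 62 in overexpression, 320 and 137 in mutants, and 245 and 189 in siblings (log2 difference from siblings -3.04, SE 0.76, adjusted p = 0.209 from limma). Its order over the groups was that of s1pr5b, with the 2 overexpression libraries at the bottom and the siblings enclosed by the mutants. Of the genes higher in overexpression with a mean of at least 50, lpar6a differed most from siblings, with 729 and 516 in overexpression, 237 and 329 in mutants, and 223 and 308 in siblings (1.22, SE 0.30, adjusted p = 0.204 from limma). For lpar2a the values were 109 and 129 in overexpression, 42 and 89 in mutants, and 38 and 88 in siblings, and for lpar2b 97 and 165 in overexpression, 81 and 95 in mutants, and 80 and 78 in siblings.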

How the data were processed

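Sorted endothelial RNA of 6 libraries was sequenced with a stranded total RNA kit. Per the paper's methods and the submitters' notes, the authors aligned trimmed reads to GRCz10 with STAR 2.4.0a, counted exonic reads of single genes with featureCounts 1.4.5-p1 (strand setting not given in the sources used here) and normalized with DESeq2 1.62. The deposited signal is the number of reads scaled by a size factor for each library, then rounded. The value of 1 read, 0.810 to 1.10, was estimated from the pattern of whole numbers among the low values and gave the depths and counting intervals. Rounding kept whole reads from being recovered, so no count model was used. Signal was fitted as log2(value + 1) with limma 3.58.1 (R 4.3.3), 6 libraries in one fit, with a mean trend and robust moderation, for 20900 genes (mean of 5 or more), with Benjamini-Hochberg adjustment and a threshold of 0.05. The fit was tested on simulated data. Shares and relative levels were compared by exact two-sided permutation tests. Genes named were all receptors, 5 fixed S1P pathway genes (sphk2, sgpl1, spns2, gna13a and gna13b), and per list and comparison up to 3 genes with a mean of 50 or more, no overlap and the largest difference. The summary of 1 pathway list is not reported here. Receptors and lists were chosen with earlier results of these data known. Alternatives were other filters, pseudocounts of 0.1 and 5, the 4 libraries alone, a replicate block (with all 6 libraries, and, added after seeing the data, with only mutants and siblings), rescaling to endothelial markers, quantile scaling, library weights and each library left out.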

Additional observations from a re-analysis of the deposited data

How the results depend on the processing

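The count of genes past the threshold, 0 in each comparison, changed with the fit. Between overexpression and siblings it was 4 without a filter, 4 with quantile scaling, 42 with rescaling to the endothelial markers, 59 with library weights, 841 with only the 4 libraries compared, and 0 to 838 with 1 library left out. The highest values came without mutant replicate 1 (793) or mutant replicate 2 (838), and 1 gene was called without overexpression replicate 2. Between mutants and siblings leaving out 1 library gave 0 to 13 (13 without mutant replicate 1, 2 without mutant replicate 2). Between overexpression and mutants it was 10 without a filter, 82 with rescaling, 7 with library weights and 0 to 2512 with 1 library left out (6 without overexpression replicate 2, 115 without mutant replicate 1, 2512 without mutant replicate 2). A lone library was assumed to vary like the other groups. The cause was not tested. Rescaling moved the median of all genes to -0.82 (overexpression against siblings), 0.061 (mutants against siblings) and -0.89 (overexpression against mutants). Medians of the pathway lists reported turned negative too. Between overexpression and siblings they were -0.63 for S1P synthesis and breakdown, -0.62 for export and carriage and -0.58 for G protein alpha subunits. Receptor desensitization had -0.34 there and LPA receptors -0.44. Against mutants they ran from -0.72 to -0.28 in overexpression.

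s1pr5b passed between overexpression and siblings with only the 4 libraries compared, with rescaling, with library weights and without either mutant library (adjusted p between 0.00740 and 0.0397 from limma), and between overexpression and mutants with rescaling (0.0238) and without mutant replicate 2 (0.00370). s1pr1, S1PR3 and s1pr5a passed between overexpression and mutants without mutant replicate 2 (log2 differences of 1.41, 3.26 and 1.85, against 0.72, 1.14 and 0.18 without mutant replicate 1). s1pr4 kept its direction against siblings in both comparisons under every alternative run, and passed in 1, given with the replicate block.

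With rescaling the log2 difference between overexpression and siblings turned to -0.18 for s1pr2, -0.49 for s1pr1, -0.48 for gna12a, -0.58 for gnai2a, -0.22 for rac1a and -0.19 for rgs3a. That between mutants and siblings turned to 0.048 for s1pr5a, and that between overexpression and mutants to -0.34 for s1pr4, -0.16 for mfsd2ab, -0.72 for spns1, -0.61 for gna13a, -0.49 for gna11b, -0.20 for rac1a and -0.34 for arhgef1a. A pathway gene was followed over the alternatives only in comparisons where it was picked for its difference. The genes sphk2, sgpl1 and gna13b were therefore not followed. With 1 library left out, the sign turned for hhex between overexpression and mutants (range -0.46 to 0.46, positive at 0.14 without overexpression replicate 1 and 0.46 without mutant replicate 2) and for s1pr4 there (-0.34 to 1.48, negative without overexpression replicate 2). Between mutants and siblings it turned for s1pr5a (-0.86 to 0.81), s1pr5b (-0.44 to 0.68) and S1PR3 (-1.44 to 0.67) without mutant replicate 1, and for s1pr2 (-0.75 to 0.040) and s1pr5a (0.043) without sibling replicate 2.

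With a replicate block, 0 genes passed in each comparison (3315, 734 and 3870 at an unadjusted p under 0.05 from limma, against 3135, 711 and 3675 without it), and no receptor gene changed its call. Libraries with the same number deviated together between mutants and siblings (r = 0.49 over 11850 genes) but not between overexpression and mutants (r = -0.20) or siblings (r = -0.11). With 2 libraries a group, and no label that ties a number to a clutch or day, the numbers were not taken as pairs. A block with only the mutant and sibling libraries, chosen after seeing the data, called 205 genes (76 higher, 129 lower), s1pr4 (-3.03, adjusted p = 2.74e-06 from limma), hhex (1.82, 2.25e-10) and rgs5b (-1.57, 3.2e-05) among them and no other receptor. It leaves 1 residual degree of freedom a gene, so its p-values rest on the spread pooled over genes. Over all results and alternatives, 1232 values were unchanged by the rule for their kind. Another 46 passed the threshold anew, 22 changed sign and 51 counts or medians moved. Unchanged meant the same direction and side of the threshold for gene differences, and the same direction for relative levels. Gene counts had to stay equal or within a set ratio, and list medians within the spread between replicates. Shares corrected for gene length were not run, since transcript lengths were not at hand. Depth limits s1pr3a, whose values were at most 6, and the overexpression values of s1pr4 and s1pr5b. It also limits the separation of s1pr2 between overexpression and siblings and of s1pr1 between mutants and siblings. The same holds for S1PR3 between overexpression and mutants.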

Other observations

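Among marker lists not set beside a receptor above, the 7 mural cell markers had a median log2 difference of 0.43 between overexpression and siblings, with 3 higher and 2 lower without overlap (26.9% and 27% of all genes), and of -0.15 between mutants and siblings. The neural crest and pigment list, with foxd3 at 0 in every library, had a median of 1.09 between overexpression and siblings over the 6 genes tested, and the liver and endoderm list one of 0.42 over its 6. In these lists 0 genes passed the adjusted threshold of limma in any comparison, and the overexpression group against siblings had, at an unadjusted p under 0.05, 1 higher and 1 lower mural gene, 0 neural crest and pigment genes and 1 higher liver and endoderm gene.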
